A study of Mus musculus with 20 samples.

Results

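The genes described here encode sodium, calcium and chloride channels, TRP channels, intracellular calcium release channels, acid-sensing channels and P2X receptors, together with some of their auxiliary proteins. They were taken by symbol from the platform annotation: every gene whose symbol starts with Scn, Cacn, Clcn, Clic, Trpa, Trpc, Trpm, Trpv, Ryr, Itpr, Asic, Accn or P2rx (followed by a number where the family numbers its members), apart from Trpm1. This gave 51 genes out of 9230 that the array names through a probe with a single symbol. Each of the 51 was read by 1 probe, and all 51 passed the filter on missing values. Probe sequences were not available, so it was not checked that each probe reads only the gene it is named for. Trpc4ap, which encodes a protein that binds TRP channels and is not a channel, entered through its symbol.

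The arrays were of the GE Healthcare (Amersham) CodeLink type, on which biotin-labelled RNA from 1 sample is hybridised to 1 array and each probe gives 1 brightness value, its intensity. The RNA came from 2 mouse pools, adult retina of C57/B6 mice and Swiss-Webster cortex taken at postnatal day 1. Both pools went to 2 sites, called the first site and site 2 here, with 5 arrays per pool and site, so the 20 arrays form 4 groups. A group's arrays are repeat measurements of the same RNA (technical replicates), so the spread and the p-values describe arrays and not animals, and precision is limited by their number. No treatment, mutation or transgene is named for either pool, and tissue, strain and age differ between the pools all at once, so their parts in a difference cannot be told apart. In pooled tissue, fewer cells of a type and less RNA per cell cannot be told apart either.

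Voltage-gated sodium and calcium channels each consist of a large pore-forming alpha subunit with smaller auxiliary subunits that set its amount at the membrane and its gating. Photoreceptors and bipolar cells release transmitter continuously through L-type calcium channels, those built on Cacna1f, whereas L-type channels elsewhere in the brain are built on Cacna1c or Cacna1d. Ryanodine receptors (Ryr) and inositol trisphosphate receptors (Itpr) release calcium from the endoplasmic reticulum, TRP channels are cation channels opened by receptors, lipids, heat or stretch, and CLC proteins conduct chloride or exchange it for protons.

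The tissue labels were checked against marker genes. Of all probes, 9.31% were called higher in retina at both sites and 10.5% lower. All 9 measured photoreceptor markers were higher in retina at both sites, and their summed intensity was 447 to 578 per array in retina, against 5.39 to 15.0 in cortex, at the first site. All 5 measured markers of cortical excitatory neurons were lower in retina at both sites, with sums of 1.35 to 1.59 in retina and 34.9 to 39.0 in cortex at the first site. Of 5 measured pituitary markers, 2, Gh and Cga, were lower in retina at both sites, with list sums of 1.02 to 1.25 in retina and 12.4 to 14.4 in cortex at the first site, so these hormone genes were read in the cortex pool. Replicate 5 of cortex at site 2 stood apart from the other arrays: its probes lay a median of 0.392 log2 units from the mean of its 4 fellow arrays, against 0.10 to 0.184 on the other 19 arrays. Over the 51 channel genes that distance was 0.443, and 8 of them were more than 1 log2 unit away. Site 2 values that leaving this array out moved by over 1.5 times, turned in sign or changed in call are given with and without it.

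**Figure D1:**
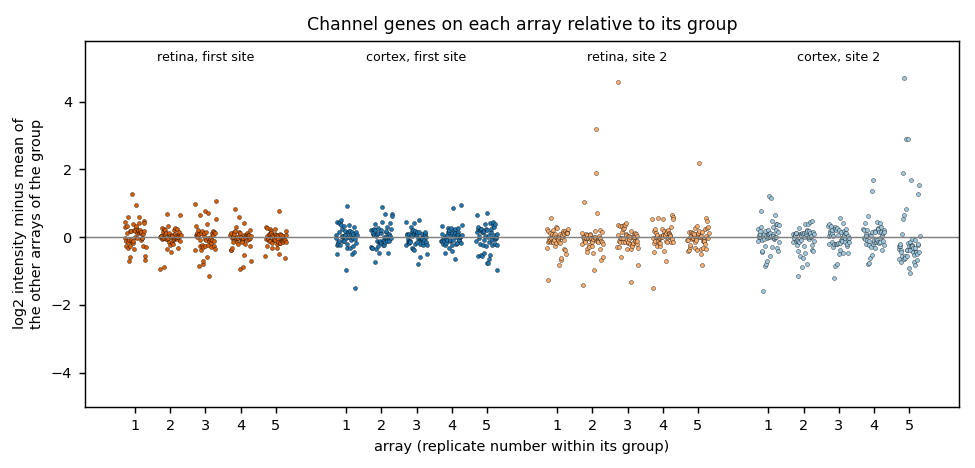
Log2 intensity of each channel gene minus the mean over the 4 fellow arrays of its group (vertical axis), for each of the 20 arrays (horizontal axis, replicate numbers within each group). Each point is 1 gene. The points of cortex replicate 5 at site 2 spread most widely as a body, while single genes stand far out on retina replicates 2, 3 and 5 of site 2.

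A difference was called when its adjusted p in limma was under 0.05 and it was at least 2-fold. At the first site 18 of the 51 channel genes were called between the tissues, with 10 higher and 8 lower in retina (13.0% of all probes were called lower), which is 35.3% of them against 24.9% of all 10339 tested probes. Site 2 had 13, with 4 higher and 9 lower in retina (13.5% of all probes were called lower), which is 25.5% against 24.6%. The count of genes higher in retina was 10 at the first site (19.6%, against 11.9% of all probes) and 4 at site 2 (7.84%, against 11.1%). Called in the same direction at both sites were 12 genes (23.5%, against 19.8% of all probes). The 5 retina and 5 cortex arrays did not overlap for 27 genes at the first site (53.3% of all probes), 25 at site 2 (48.2%) and 20 at both (39.7%).

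Higher in retina at both sites were Cacnb2, Cacna1f, Cacna2d3 and Cacng3 (4 genes, against 9.31% of all probes called higher at both sites). Lower in retina at both sites were Cacna1c, Cacnb1, Cacna2d1, Ryr1, Asic1, Trpv2, Trpv6 and Trpc4 (8 genes, against 10.5%). The 51 genes had a median difference of 0.01 log2 (first site) and -0.08 (site 2), beside -0.04 and -0.05 over all probes. Across the 51 genes the differences at the 2 sites had a Pearson correlation of 0.924, as a description of the same RNA pools measured on separate arrays. The correlation was 0.919 over all tested probes. The sign was the same at both sites for 41 of the 51 genes and for 8511 of the 10339 tested probes.

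**Figure D2:**
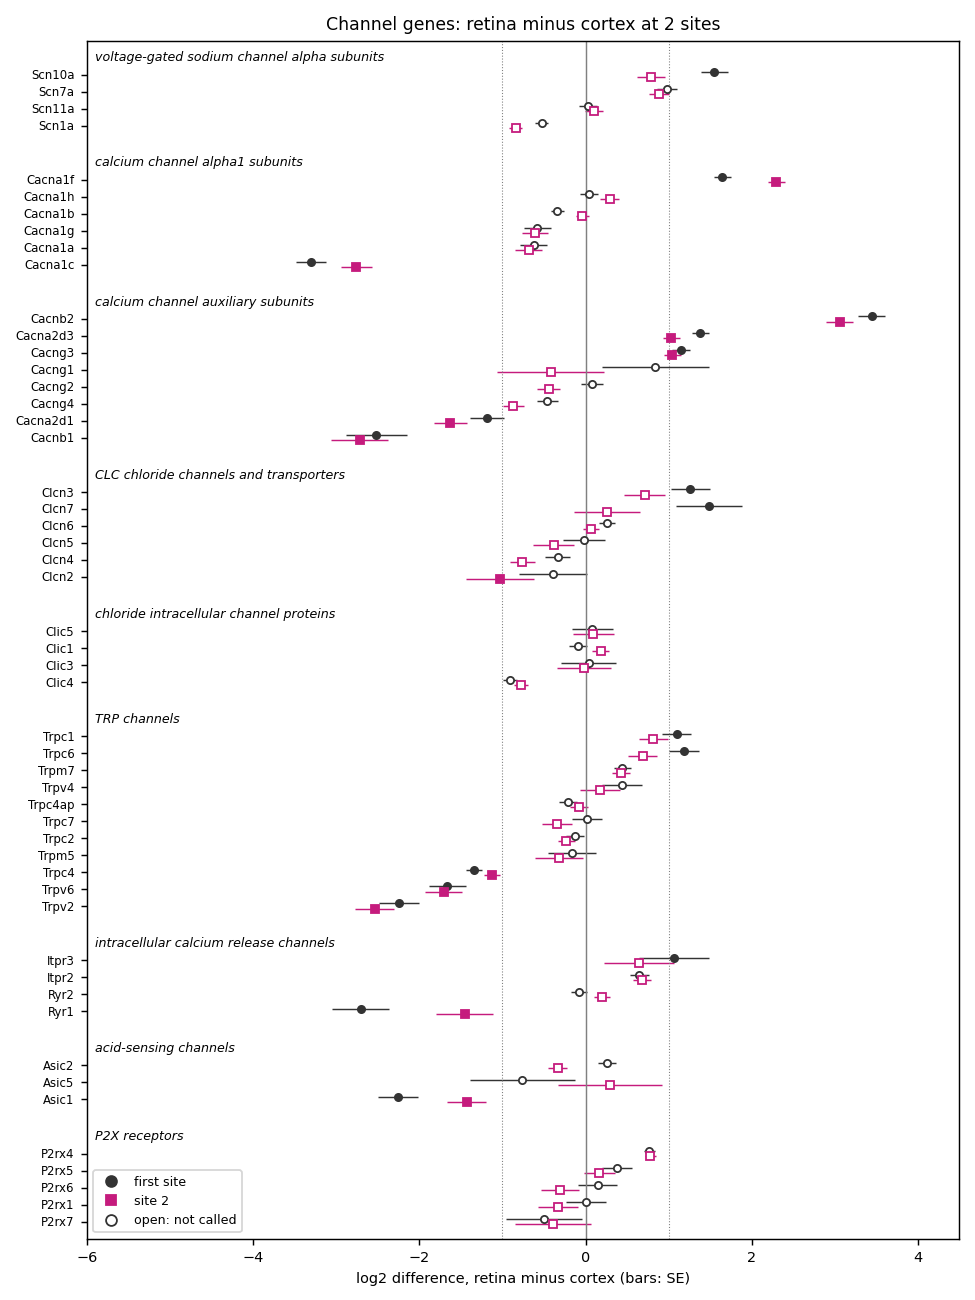
Log2 difference, retina minus cortex, for the 51 channel genes by family (horizontal axis, bars are standard errors, n = 5 arrays per group). Circles are the first site and squares site 2, filled where called, and dotted lines mark 2-fold. Cacna1f and Cacnb2 lie far to the right and Cacna1c and Cacnb1 far to the left at both sites, while all 4 Clic genes and all 5 P2rx genes lie inside the dotted lines.

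RefSeq holds promoter windows of 300 bases (250 before to 50 after a transcription start, build GRCm38.p6) for 45 of the 51 genes. Those shown are of calcium channel genes called in opposite directions, the pore subunits Cacna1f and Cacna1c and the alpha2delta subunits Cacna2d3 and Cacna2d1. Capitals mark the letters TAATCC, a core recognised by the photoreceptor factors CRX and OTX2, and TGCTGA, part of the element recognised by the rod factor NRL, each searched on both strands (as GGATTA and TCAGCA on the other). The letters carry the gene's strand, 5′ to 3′. The windows are chrX:7606853-7607152 (plus strand) for Cacna1f, chr14:29721815-29722114 (minus) for Cacna2d3, chr6:118757925-118758224 (minus) for Cacna1c and chr5:15934441-15934740 (plus) for Cacna2d1. Cacna1c has 3 listed starts, and its window with the most matches is shown.
Cacna1f promoter: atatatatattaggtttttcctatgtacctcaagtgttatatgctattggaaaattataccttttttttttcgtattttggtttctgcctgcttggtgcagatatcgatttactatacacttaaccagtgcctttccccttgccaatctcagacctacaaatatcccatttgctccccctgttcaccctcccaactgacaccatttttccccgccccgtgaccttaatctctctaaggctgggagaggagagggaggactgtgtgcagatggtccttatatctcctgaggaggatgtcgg
Cacna2d3 promoter: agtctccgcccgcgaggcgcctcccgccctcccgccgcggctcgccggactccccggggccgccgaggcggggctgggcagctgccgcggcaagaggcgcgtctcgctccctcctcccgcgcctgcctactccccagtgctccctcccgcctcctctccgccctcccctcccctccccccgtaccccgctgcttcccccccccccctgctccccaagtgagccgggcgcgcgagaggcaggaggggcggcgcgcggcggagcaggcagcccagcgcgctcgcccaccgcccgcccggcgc
Cacna1c promoter: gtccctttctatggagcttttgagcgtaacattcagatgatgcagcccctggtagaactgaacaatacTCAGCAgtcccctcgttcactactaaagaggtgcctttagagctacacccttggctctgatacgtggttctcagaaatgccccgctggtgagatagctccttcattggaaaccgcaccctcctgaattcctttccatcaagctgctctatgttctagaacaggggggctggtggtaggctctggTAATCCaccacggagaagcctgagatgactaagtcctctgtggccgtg
Cacna2d1 promoter: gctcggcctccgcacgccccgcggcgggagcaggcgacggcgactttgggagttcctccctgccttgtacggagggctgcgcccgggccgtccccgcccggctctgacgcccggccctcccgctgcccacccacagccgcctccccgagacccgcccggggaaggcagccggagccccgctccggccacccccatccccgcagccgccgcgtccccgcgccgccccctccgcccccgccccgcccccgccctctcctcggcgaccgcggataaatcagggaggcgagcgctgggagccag
The Cacna1f window held 5 CG dinucleotides at 43.7% G and C, and neither motif. The windows of Cacna2d3 and Cacna2d1 had 81.3% and 80.0% G and C with 41 and 42 CG dinucleotides, and these genes were called in opposite directions. TAATCC stood at base 253 of the Cacna1c window, and TGCTGA, as TCAGCA, at base 69. Over all 32851 windows, 7.06% held TAATCC and 19.5% TGCTGA, and over the 57 windows of channel genes 5.26% and 22.8% did. The windows with TAATCC belonged to Cacna1c, Ryr2 and Scn7a, and a match or its lack describes only these letters in these windows.

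Among the pore-forming calcium channel subunits, Cacna1f and Cacna1c differed most and in opposite directions. Cacna1f encodes the L-type pore of photoreceptor and bipolar cell terminals, and its human counterpart is mutated in a form of stationary night blindness. It read 7.98, 7.26, 8, 6.91 and 7.47 in retina at the first site, against 2.16, 2.58, 2.52, 2.38 and 2.38 in cortex. It read 9.79, 10.5, 9.54, 11.8 and 10.5 in retina at site 2, against 2.34, 2.29, 2.55, 1.89 and 1.66 in cortex. Every retina array lay above every cortex array at both sites, and the site 2 retina arrays all read higher than the first-site retina arrays. The difference was 3.13-fold at the first site (log2 1.65, SE 0.10, adjusted p in limma 3.5e-11) and 4.91-fold at site 2 (2.29, SE 0.10, 2.5e-13).

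Cacna1c, the L-type pore of heart, smooth muscle and most of the brain, read 0.279, 0.274, 0.234, 0.195 and 0.201 in retina at the first site, against 2.12, 2.61, 2.14, 2.06 and 2.71 in cortex. At site 2 it read 0.38, 0.684, 0.323, 0.298 and 0.325 in retina, against 2.72, 2.66, 2.79, 2.72 and 2.1 in cortex. The groups did not overlap, and the highest retina array was replicate 2 of site 2. Cacna1c was 9.87-fold lower in retina at the first site (log2 -3.30, SE 0.18, adjusted p in limma 7.7e-12) and 6.77-fold lower at site 2 (-2.76, SE 0.18, 1.2e-10). The other 4 measured pores were not called at either site. The T-type pores Cacna1g (-0.58 and -0.61 log2) and Cacna1h (0.04 and 0.29, or 0.15 without cortex replicate 5 of site 2) and the N-type pore Cacna1b (-0.34 and -0.04, or -0.08 without it) differed by less than 2-fold. Cacna1a, the P/Q-type pore, differed by -0.63 and -0.68 (adjusted p in limma 0.0024 and 0.0012), short of the fold required.

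The beta subunits, which sit on the inner side of the pore and carry it to the membrane, also differed in opposite directions. Cacnb2, the beta subunit of the photoreceptor channel, read 1.31, 1.6, 1.31, 1.67 and 1.72 in retina at the first site, against 0.17, 0.142, 0.165, 0.126 and 0.103 in cortex. Its site 2 readings were 1.72, 1.67, 1.75, 1.39 and 1.59 in retina, against 0.203, 0.183, 0.199, 0.277 and 0.136 in cortex. Retina lay far above cortex on every array. The difference was 10.9-fold at the first site (log2 3.44, SE 0.16, adjusted p in limma 6.4e-13) and 8.33-fold at site 2 (3.06, SE 0.16, 3.8e-12). The cortex readings were dim. With values raised to at least the 25th percentile of all values (0.194), a floor, the difference was 2.96 and 2.94.

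Cacnb1, the beta subunit of skeletal muscle that brain also uses, read 0.0451, 0.0408, 0.0945, 0.105 and 0.0694 in retina at the first site, against 0.477, 0.259, 0.393 and 0.429 on the 4 cortex arrays with a value. The arrays of site 2 gave 0.0858, 0.0758, 0.11, 0.0954 and 0.0983 in retina, against 0.486, 0.489, 0.514, 0.393 and 1.73 in cortex. All cortex arrays lay above all retina arrays, and cortex replicate 5 of site 2 was the highest. Cacnb1 was 5.74-fold lower in retina at the first site (log2 -2.52, SE 0.37, adjusted p in limma 8.8e-06) and 6.58-fold lower at site 2 (-2.72, SE 0.35, 1.7e-06, and -2.34 without cortex replicate 5). The retina readings were dim (the 5th percentile of all values was 0.0445), and with the floor at the 25th percentile the first-site difference was -0.97 and no longer called.

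The alpha2delta subunits, extracellular proteins that raise the amount of channel at the surface, gave another opposed pair. Cacna2d3 read 10.7, 11, 11.7, 11.8 and 10.4 in retina at the first site, against 3.74, 4.83, 3.93, 4.11 and 4.85 in cortex. Site 2 arrays read 9.12, 9.7, 9.06, 9.44 and 8.92 in retina, against 4.3, 3.98, 4.19, 4.34 and 6.07 in cortex. The groups did not overlap, and the cortex array nearest to retina was replicate 5 of site 2. Cacna2d3 was higher in retina, 2.6-fold at the first site (log2 1.38, SE 0.10, adjusted p in limma 5.0e-10) and 2.05-fold at site 2 (1.03, SE 0.10, 3.5e-08). The site 2 call lay at the fold limit and was lost without cortex replicate 2 of site 2 (0.99) and after quantile normalization (0.95).

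Cacna2d1, the binding site of the drug gabapentin, read 0.314, 0.257, 0.14, 0.247 and 0.211 in retina at the first site, against 0.646, 0.633, 0.481, 0.396 and 0.459 in cortex. At site 2 it read 0.281, 0.202, 0.148, 0.207 and 0.21 in retina, against 0.498, 0.606, 0.713, 0.711 and 0.667 in cortex. Every retina array was below every cortex array. Cacna2d1 was 2.27-fold lower in retina at the first site (log2 -1.18, SE 0.20, adjusted p in limma 4.1e-05, and -0.97, not called, after quantile normalization) and 3.09-fold lower at site 2 (-1.63, SE 0.20, 8.2e-07).

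Of the gamma subunit genes, Cacng2, Cacng3 and Cacng4 encode proteins best known for carrying AMPA-type glutamate receptors to synapses. Cacng3 read 2.4, 2.44, 2.71, 2.49 and 2.62 in retina at the first site, against 1.15, 1.07, 1.16, 1.1 and 1.24 in cortex. Its site 2 readings were 2.21, 2.34, 2.71, 2.14 and 2.4 in retina, against 1.21, 1.32, 1.35, 1.06 and 0.841 in cortex. Retina lay above cortex on every array, by 2.21-fold at the first site (log2 1.15, SE 0.11, adjusted p in limma 1.4e-08) and 2.06-fold at site 2 (1.04, SE 0.11, 5.5e-08). The site 2 call was lost without cortex replicate 5 (0.93) or retina replicate 3 (0.99) of site 2. Cacng2, known as stargazin, differed by 0.08 and -0.44 log2 (-0.31 without cortex replicate 5 of site 2) and Cacng4 by -0.46 and -0.87, and neither was called. Cacng1, the gamma subunit of skeletal muscle, read 0.112 to 0.175 on 4 cortex arrays of site 2 and 3.66 on replicate 5. Its site 2 difference was -0.42 with that array and 0.52 without it, not called in either case.

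**Figure D3:**
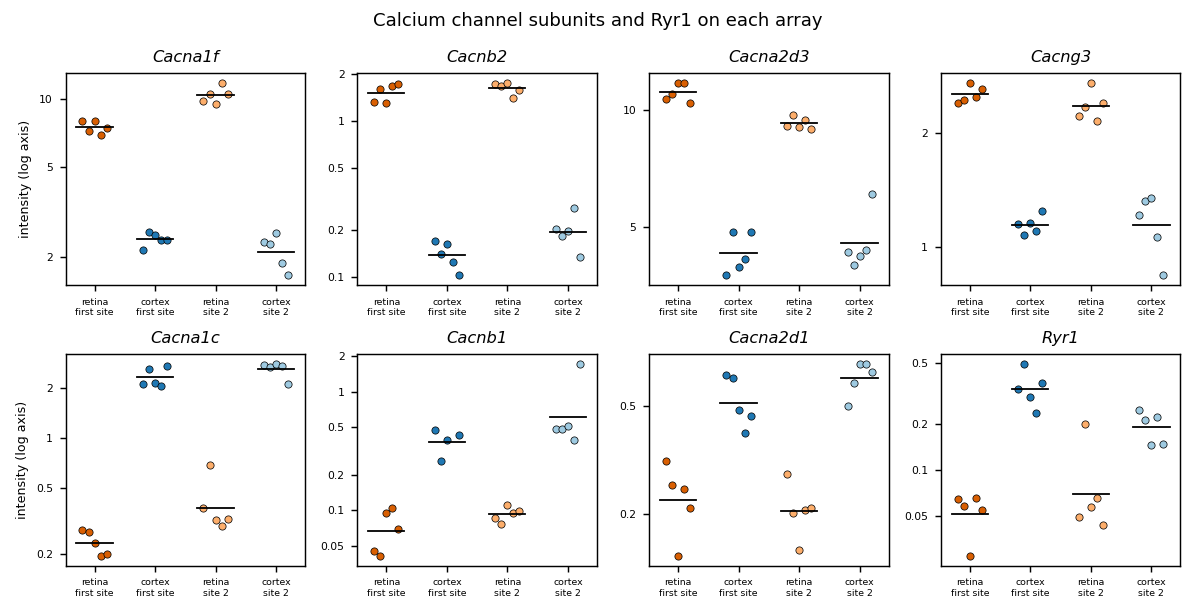
Intensity on each array (vertical axis, log scale, no unit) of 7 calcium channel subunit genes and Ryr1, in retina and cortex at each site. Points are arrays in order of replicate number and lines are geometric means. The 4 genes of the upper row are higher in retina, with no overlap, and the 4 of the lower row are lower, with overlap for Ryr1 at site 2.

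Among the intracellular calcium release channels, Ryr1 was lower in retina at both sites and Ryr2 differed little. Ryr1, the ryanodine receptor of skeletal muscle, also present in some neurons, read 0.065, 0.0578, 0.0273, 0.0656 and 0.0546 in retina at the first site, against 0.34, 0.494, 0.30, 0.234 and 0.368 in cortex. The arrays of site 2 gave 0.0491, 0.199, 0.0574, 0.0651 and 0.0438 in retina, against 0.246, 0.21, 0.146, 0.221 and 0.149 in cortex. The groups were apart at the first site and overlapped at site 2, where retina replicate 2 read above 2 of the cortex arrays. Ryr1 was 6.52-fold lower in retina at the first site (log2 -2.71, SE 0.34, adjusted p in limma 1.2e-06) and 2.74-fold lower at site 2 (-1.45, SE 0.34, 0.0011, and -1.84 without that retina array). These are dim readings, and with a floor at the 25th percentile the differences were -0.79 and -0.12 and were not called.

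Ryr2, the ryanodine receptor of heart and brain, averaged, at the first site, 5.09 in retina and 5.37 in cortex (n = 5 each, SDs of 0.10 and 0.17 log2), and 3.88 in retina and 3.39 in cortex at site 2. It was not called at either site (-0.08 and 0.19 log2). Of the inositol trisphosphate receptors, Itpr2 was 1.57-fold and 1.6-fold higher in retina (adjusted p in limma 4.4e-05 and 2.6e-05), short of 2-fold. Itpr3 was called at the first site (1.07, adjusted p in limma 0.036) and not at site 2 (0.64, or 0.43 without cortex replicate 5). Its first-site readings averaged 0.0485 in retina and 0.0232 in cortex, with overlap, about the 5th percentile of all intensities (0.0445). The call was lost without any one of 6 first-site arrays (adjusted p in limma 0.0512 to 0.0981), namely retina replicate 1, 2 or 4 and cortex replicate 2, 3 or 5. It was also lost with a floor at the 5th percentile (0.22).

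Because Ryr1, Cacnb1 and Cacng1 are genes of skeletal muscle, the muscle markers are given beside them. Of 12 measured, 3 were called higher and 2 lower in retina at the first site, and 2 higher and 2 lower at site 2. The shares of all probes were 11.9% higher and 13.0% lower at the first site, and 11.1% and 13.5% at site 2. Tnnt1, slow troponin T, was the most raised in retina (4.42 and 3.72 log2), and Myh2, a fast myosin, the most lowered (-1.65 and -1.64). Their summed intensity was 5.32 to 6.13 per array in retina and 2.70 to 3.01 in cortex at the first site. For site 2 it was 4.39 to 5.30 in retina and 3.20 to 5.50 in cortex. No muscle marker was at or below 0 on every array, and the part of muscle RNA in the values of Ryr1 and Cacnb1 was not tested.

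Of the 11 genes in the TRP group, 3 were lower in retina at both sites and 2 were called higher at the first site alone. Over all probes 10.5% were lower at both sites and 11.9% higher at the first site. Trpc4, a canonical TRP channel opened downstream of phospholipase C, read 0.622, 0.637, 0.658, 0.656 and 0.585 in retina at the first site, against 1.58, 1.7, 1.54, 1.52 and 1.67 in cortex. Site 2 arrays read 0.648, 0.689, 0.572, 0.619 and 0.549 in retina, against 1.34, 1.35, 1.44, 1.59 and 1.04 in cortex. Retina lay below cortex on all arrays, by 2.53-fold (log2 -1.34, SE 0.09, adjusted p in limma 2.1e-10) and 2.18-fold (-1.13, SE 0.09, 2.8e-09).

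Trpv2, a vanilloid channel found in immune cells and in some neurons, read 0.186, 0.365, 0.27, 0.22 and 0.261 in retina at the first site, against 1.25, 1.2, 1.22, 1.1 and 1.27 in cortex. At site 2 it read 0.268, 0.27, 0.235, 0.231 and 0.246 in retina, against 1.16, 1.15, 1.12, 1.27 and 3.38 in cortex. The groups did not overlap, and cortex replicate 5 of site 2 was again the highest. Trpv2 was 4.75-fold lower in retina at the first site (log2 -2.25, SE 0.24, adjusted p in limma 9.8e-08) and 5.81-fold lower at site 2 (-2.54, SE 0.24, 1.8e-08, and -2.23 without that array). Of 7 measured genes of microglia and macrophages, 2 (Aif1 and Fcer1g) were lower in retina at both sites and 0 higher, with list sums of 11.1 to 12.4 in retina and 12.9 to 14.2 in cortex at the first site, and of 8.56 to 10.2 in retina and 10.4 to 11.4 in cortex at site 2. Of all probes, 10.5% were lower at both sites and 9.31% higher. The part of microglia and macrophages in the Trpv2 values was not tested.

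Trpv6, a calcium-selective channel of epithelia, read 0.0644, 0.0788, 0.138, 0.051 and 0.0703 in retina at the first site, against 0.248, 0.342, 0.182, 0.248 and 0.21 in cortex. Its site 2 readings were 0.119, 0.0758, 0.0869, 0.14 and 0.112 in retina, against 0.317, 0.36, 0.316, 0.37 and 0.345 in cortex. Retina lay below cortex on all arrays, by 3.17-fold at the first site (log2 -1.67, SE 0.22, adjusted p in limma 2.2e-06) and 3.26-fold at site 2 (-1.71, SE 0.22, 1.7e-06). The readings were dim, and with a floor at the 25th percentile the differences were -0.33 and -0.81 and were not called.

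Trpc1 and Trpc6 were called between the tissues at the first site, and between the sites in retina. Trpc1, a subunit that joins other TRPC proteins, read 5.09, 5.2, 5.77, 5.76 and 5 in retina at the first site, against 2.63, 1.93, 2.2, 2.73 and 3.23 in cortex. The arrays of site 2 gave 2.38, 2.51, 2.62, 2.63 and 2.34 in retina, against 2.04, 1.81, 1.32, 1.3 and 0.896 in cortex. Retina lay above cortex at both sites, but the retina arrays of site 2 fell within the range of the cortex arrays of the first site. The difference was 2.14-fold at the first site (log2 1.10, SE 0.17, adjusted p in limma 1.6e-05) and 1.76-fold, not called, at site 2 (0.82, SE 0.17, 4.0e-04). Trpc6, a channel opened by diacylglycerol, averaged, at the first site, 0.318 in retina and 0.140 in cortex (n = 5 each, SDs of 0.15 and 0.24 log2) and 0.133 in retina and 0.0825 in cortex at site 2 (SD 0.33 and 0.38). It was called at the first site (1.18, adjusted p in limma 8.7e-06), though not with the 25th percentile as a floor (0.71), and not at site 2 (0.69). The test of the difference between the sites gave adjusted p = 0.52 for Trpc1 and 0.25 for Trpc6 in limma.

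The other 6 genes of the TRP group were called at neither site. Trpm7, a channel fused to a protein kinase, was 1.36-fold and 1.35-fold higher in retina (adjusted p in limma 0.0011 and 0.0015). Trpc2, the channel of the vomeronasal organ, differed by -0.13 and -0.23 log2. Trpc7 (0.01 and -0.35, or -0.09 without cortex replicate 5 of site 2), Trpv4 (0.44 and 0.17, or 0.08 without it), Trpm5 (-0.16 and -0.32) and Trpc4ap (-0.21 and -0.08, or -0.18 without that array) also stayed within 2-fold.

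Asic1 was the only acid-sensing channel gene of the 3 measured that was called between tissues. Asic1, a proton-gated sodium channel of neurons, read 0.052, 0.0244, 0.0702, 0.0425 and 0.0298 in retina at the first site, against 0.202, 0.167, 0.251, 0.182 and 0.182 in cortex. Site 2 arrays read 0.114, 0.146, 0.116, 0.181 and 0.13 in retina, against 0.417, 0.335, 0.436, 0.416 and 0.253 in cortex. Retina lay below cortex at each site, although retina at site 2 and cortex at the first site shared a range. The difference was 4.78-fold at the first site (log2 -2.26, SE 0.24, adjusted p in limma 7.9e-08) and 2.70-fold at site 2 (-1.43, SE 0.24, 2.8e-05). With the 25th percentile as a floor it was -0.09 and -0.91 and was not called. Asic2 differed by 0.26 (first site) and -0.34 (site 2), and the change between the sites (-0.59 log2) had adjusted p = 0.041 in limma at under 2-fold. Asic5 was not called (-0.76 and 0.30 log2), and its retina arrays of site 2 read 0.139 to 0.256 apart from replicate 3 at 4.03, without which the site 2 difference was -0.62. The groups share an estimate of spread, so that array also enters the first-site SE of 0.63. At the first site the retina and cortex arrays of Asic5 did not overlap.

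Of the 4 sodium channel genes, only Scn10a was called, and at the first site alone. Scn10a encodes the tetrodotoxin-resistant channel best known from pain-sensing neurons. It read 17.3, 18.3, 15.3, 14.1 and 14.3 in retina at the first site, against 5.63, 5.92, 5.29, 4.81 and 5.36 in cortex. At site 2 it read 8.08, 11.9, 7.03, 7.54 and 6.79 in retina, against 4.81, 5.85, 5.9, 4.35 and 3.11 in cortex. Retina lay above cortex at both sites, by 2.93-fold at the first site (log2 1.55, SE 0.17, adjusted p in limma 1.1e-07) and by 1.73-fold at site 2 (0.79, SE 0.17, 3.8e-04), which fell short of the fold required. The change between the sites missed the threshold (adjusted p = 0.074 in limma).

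Scn11a, its neighbour in the RefSeq gene order and another channel of sensory neurons, averaged, at the first site, 22.3 in retina and 21.8 in cortex (n = 5 each, SDs of 0.14 and 0.07 log2) and 14.3 in retina and 13.3 in cortex at site 2. It was not called (0.03 and 0.10 log2, the second -0.0081 without cortex replicate 5). Scn7a, which encodes the sodium sensor Nax, was 1.98-fold and 1.85-fold higher in retina (adjusted p in limma 5.7e-07 and 2.2e-06), just under the fold limit. Scn1a, a main channel of inhibitory neurons, was 1.44-fold and 1.79-fold lower in retina (adjusted p in limma 7.2e-06 and 1.5e-08). Scn1a and Scn7a lie 2 places apart in the order of protein-coding genes and differed in opposite directions. The adjacent P2rx7 (-0.50 and -0.40) and P2rx4 (0.77 and 0.78) had opposite signs too. The adjacent Cacng1 (0.84 and -0.42) and Cacng4 (-0.46 and -0.87) had opposite signs at the first site. Without cortex replicate 5 of site 2 their site 2 values were 0.52 and -0.99, also opposite.

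**Figure D4:**
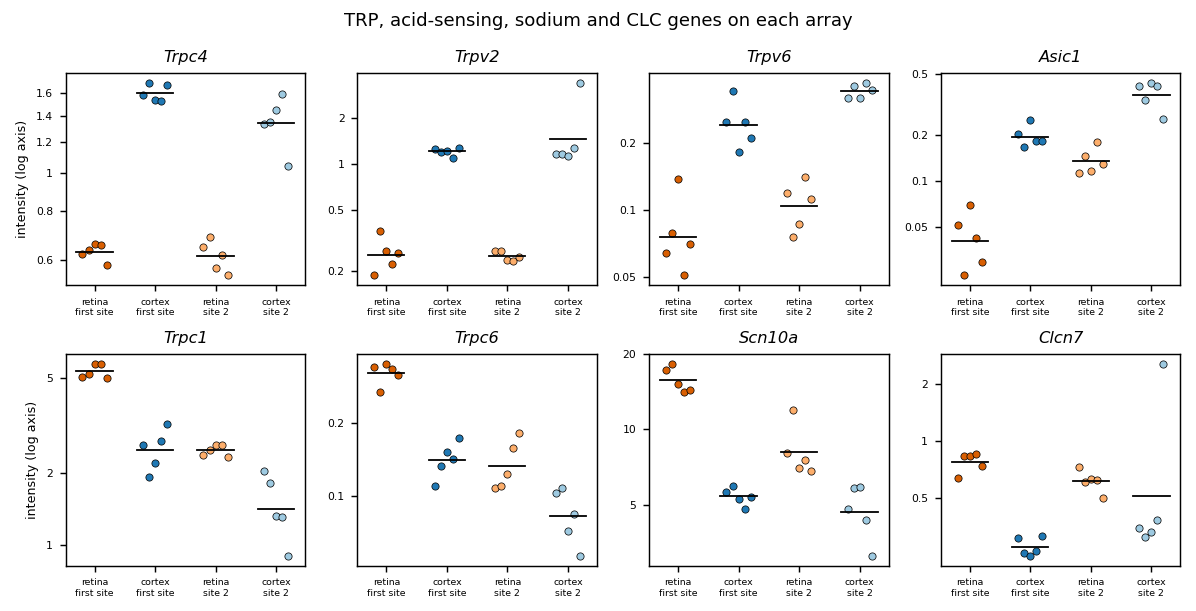
Intensity on each array (vertical axis, log scale, no unit) of 3 TRP channel genes and Asic1 (upper row), and of Trpc1, Trpc6, Scn10a and Clcn7 (lower row), in retina and cortex at each site. Points are arrays in order of replicate number and lines are geometric means. The upper genes are lower in retina at both sites, and Clcn7 read 2.55 on cortex replicate 5 of site 2, above every other array.

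No CLC gene was called in the same direction at both sites, and for 3 of the 6 cortex replicate 5 of site 2 read far above the other cortex arrays of that site. Clcn7, a lysosomal chloride-proton exchanger, read 0.642, 0.834, 0.834, 0.849 and 0.739 in retina at the first site, against 0.308, 0.259, 0.247, 0.264 and 0.317 in cortex. Its site 2 readings were 0.726, 0.608, 0.634, 0.621 and 0.499 in retina, against 0.348, 0.312, 0.332, 0.384 and 2.55 in cortex. Apart from cortex replicate 5, the site 2 groups did not overlap. At the first site Clcn7 was 2.79-fold higher in retina (log2 1.48, SE 0.40, adjusted p in limma 0.0033). The site 2 difference was 0.26 (SE 0.40), and 0.84 without that array (adjusted p = 2.8e-06), below 2-fold in both cases.

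Clcn3, an exchanger of endosomes and synaptic vesicles whose loss in mice leads to loss of photoreceptors, read 6.25, 2.54, 1.98, 2.74 and 3.15 in retina at the first site, against 1.3, 1.5, 1.34, 1.07 and 1.22 in cortex. The site 2 values were 5.44, 5.5, 5.27 and 6.53 on the 4 retina arrays with a value, against 3.01, 3.3, 3.08, 2.96 and 5.45 in cortex. The first-site groups did not overlap, and at site 2 cortex replicate 5 reached the level of retina. The difference was 2.40-fold at the first site (log2 1.26, SE 0.24, adjusted p in limma 1.4e-04, and 1.00 without retina replicate 1) and 1.64-fold, not called, at site 2 (0.71, SE 0.25, 0.020, and 0.88 without cortex replicate 5).

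Clcn2, a chloride channel of the cell membrane, was called lower in retina at site 2 (-1.03, SE 0.41, adjusted p in limma 0.036) and not at the first site (-0.39). On cortex replicate 5 of site 2 it read 1.99, against 0.248 to 0.292 on the other 4 cortex arrays and 0.167 to 0.240 in retina, and without that array the difference was -0.45 and not called. The call was lost without retina replicate 1, 2, 4 or 5 of site 2 as well (adjusted p in limma 0.0525 to 0.0681). It was lost too after quantile normalization (-0.81), with the 25th percentile as a floor (-0.97) and in a fit of the site 2 groups alone (adjusted p in limma 0.12). Clcn4 differed by -0.33 and -0.76, Clcn5 by -0.02 and -0.38 and Clcn6 by 0.26 and 0.07 (-0.04 at site 2 without that array), and none of these was called.

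No chloride intracellular channel gene and no P2X receptor gene was called between tissues at either site. Clic4 came nearest among the Clic genes, reading 1.88-fold and 1.71-fold lower in retina (adjusted p in limma 1.0e-08 and 1.0e-07). Clic1 differed by -0.09 and 0.18, Clic3 by 0.04 and -0.02 (-0.20 without cortex replicate 5 of site 2) and Clic5 by 0.08 and 0.10 (0.02 without it). P2rx4, an ATP-gated channel found in neurons and microglia, read 1.38, 1.31, 1.26, 1.26 and 1.19 in retina at the first site, against 0.749, 0.713, 0.814, 0.782 and 0.698 in cortex. The arrays of site 2 gave 1.25, 1.23, 1.27, 1.27 and 1.26 in retina, against 0.787, 0.773, 0.797, 0.681 and 0.634 in cortex. The groups were apart at both sites with little spread, at 1.70-fold and 1.72-fold (adjusted p in limma 1.2e-08 and 1.0e-08), under the fold required. The other P2X genes, P2rx1, P2rx5, P2rx6 and P2rx7, differed by -0.50 to 0.38 (first site) and by -0.40 to 0.17 (site 2). At site 2 P2rx1 gave 0.01 without cortex replicate 5 and -0.33 with it. On retina replicate 2 of site 2 P2rx7 read 1.71, against 0.141 to 0.221 on the other retina arrays. Site 2 cortex arrays read 0.328 to 0.488, above every other retina array of that site. That retina array thus made the P2rx7 difference of -0.40 at site 2 smaller in size, and the difference without it is not given.

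The 2 sites read the same RNA, so the channel genes were also compared between sites within each tissue. In retina 5 of 51 were called (9.80%, against 6.24% of all probes) and in cortex 6 (11.8%, against 7.21%). In retina, site 2 read higher than the first site for Asic1 (1.73 log2) and Clic5 (1.16), against 4.79% of all probes, and lower for Trpc6 (-1.26), Trpc1 (-1.10) and Trpm7 (-1.06), against 1.45%. In cortex, site 2 read higher for Cacng1 (1.67), Clcn3 (1.44), Clic5 (1.14), Trpm5 (1.11) and Clcn2 (1.01), against 5.29% of all probes, and lower for Trpm7 (-1.04), against 1.92%. Trpm7 averaged 3.20 at site 2 and 6.67 at the first site in retina, and 2.38 at site 2 and 4.90 at the first site in cortex. The cortex values of Cacng1 and Clcn2 were 0.72 and 0.43 without replicate 5 of site 2, and their calls were lost without it or without any one first-site cortex array. In cortex, Clic5 was 0.90 without site 2 replicate 1 and 0.99 without first-site replicate 5, Trpm5 was 0.80 without first-site replicate 1, and Trpm7 was -0.99 without first-site replicate 2, each under 2-fold. Trpm7 in retina was -0.98 without first-site replicate 1. The cortex count of 6 was 3 without first-site replicate 2 or 5. With a floor at the 25th percentile, Asic1 (0), Clic5 (0.19) and Trpc6 (-0.71) in retina and 4 of the 6 genes in cortex were no longer called. Quantile normalization ended the calls of Clic5 (0.86) and Trpm7 (-0.95) in retina. In cortex it ended those of Cacng1 (1.27, adjusted p in limma 0.169), Clcn2 (0.69), Clic5 (0.67), Trpm5 (0.62) and Trpm7 (-0.98). After it 4 channel genes were called in cortex, and of the 6 called without it only Clcn3 was among them.

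The retina minus cortex difference itself was called different between the sites in limma for 0 of the 51 genes, against 0.725% of all probes, and 12 (23.5%) had an unadjusted p under 0.05, against 21.8%. At an adjusted p under 0.05 with no minimum fold there were 2 (against 3.98% of all probes), Cacna1f (0.65 log2 larger at site 2, adjusted p = 0.016) and Asic2. Within groups, the median SD of the channel genes over 5 arrays was 0.184 log2 for retina and 0.187 for cortex at the first site, and 0.160 for retina and 0.258 for cortex at site 2. Over all probes the median SD was 0.162, 0.165, 0.158 and 0.225 in the same order.

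Genes that work with these channels were read from 8 lists. For comparison, 9.31% of all probes were called higher in retina at both sites and 10.5% lower. Of 15 measured calcium sensors and buffers, 8 were higher in retina at both sites and 1 was lower (list median 1.48 and 1.51 log2, beside -0.04 and -0.05 over all probes). The list holds Guca1a and Rcvrn, proteins of photoreceptors, and Guca1a led it at 6.31 and 8.19 log2 (9.1 without cortex replicate 5 of site 2). Cabp1 (2.1 and 1.97) and Cabp2 (6.10 and 3.95, or 4.88 without that array), calcium-binding proteins that act on L-type channels, were also higher in retina. Ncs1, neuronal calcium sensor, was the one lower at both sites (-1.17 and -1.52), and its first-site value was -0.97, not called, without cortex replicate 1.

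Of 17 measured genes of store-operated entry and of the release sites, 1 was higher in retina at both sites and 3 were lower. The lower ones were Fkbp1b (-1.99 and -2.18), a protein bound to ryanodine receptors, and the scaffolds Homer1 (-1.3 and -1.5) and Homer2 (-1.6 and -1.33). Asph was the higher one (1.06 and 1.11), with a first-site value of 0.97 without retina replicate 1 and 0.99 without cortex replicate 1, neither called. Of 11 genes upstream in inositol phosphate signalling, Gna14, a G protein alpha subunit, was higher at both sites (2.40 and 1.54) and Plcb1, a phospholipase C, lower (-1.84 and -2.11). The site 2 value of Gna14 was 2.42 without cortex replicate 5, and without any one of the other 9 arrays of site 2 its call was lost (adjusted p in limma 0.0507 to 0.121).

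Of 10 sodium channel partners, 0 were called higher in retina at either site in limma and 2 were lower at both. Those were Fgf13 (-1.91 and -1.84) and Fgf14 (-1.15 and -1.64), intracellular proteins that bind sodium channel alpha subunits. Of 7 tested genes of the sodium-potassium pump, Fxyd1 was higher (2.80 and 2.81) and Fxyd6 (-2.52 and -2.31) and Fxyd5 (-1.61 and -2.03), pump regulators, were lower. Of 8 calcium pumps and exchangers, Atp2c1 (1.54 and 1.18) and Slc24a3 (1.03 and 1.31) were higher at both sites. The first-site call of Slc24a3 was lost without retina replicate 3 or cortex replicate 1, 3 or 4 (0.97 to 0.99).

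Of 13 other chloride channels and cation-chloride transporters, 2 were higher in retina at both sites and 0 were called lower at either site. Clca1 led (3.21 and 3.01), with cortex averages of 0.0603 and 0.0454, near the 5th percentile of all values (0.0445). Differences of partner genes are given without a floor. Slc12a5, the potassium-chloride cotransporter KCC2 of mature neurons, averaged, at the first site, 2.71 in retina and 0.720 in cortex, and 2.26 in retina and 0.519 in cortex at site 2 (1.91 and 2.12 log2). Of 10 presynaptic partners of calcium channels, 3 were higher at both sites and 1 was lower. Gem, a small GTPase that binds beta subunits and inhibits the channel, was 3.93 and 3.38 log2 higher, and Stx1a, a syntaxin of conventional synapses, was -3.20 and -1.93, with retina replicate 3 of site 2 at 8.04 (-2.89 at site 2 without it).

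**Figure D5:**
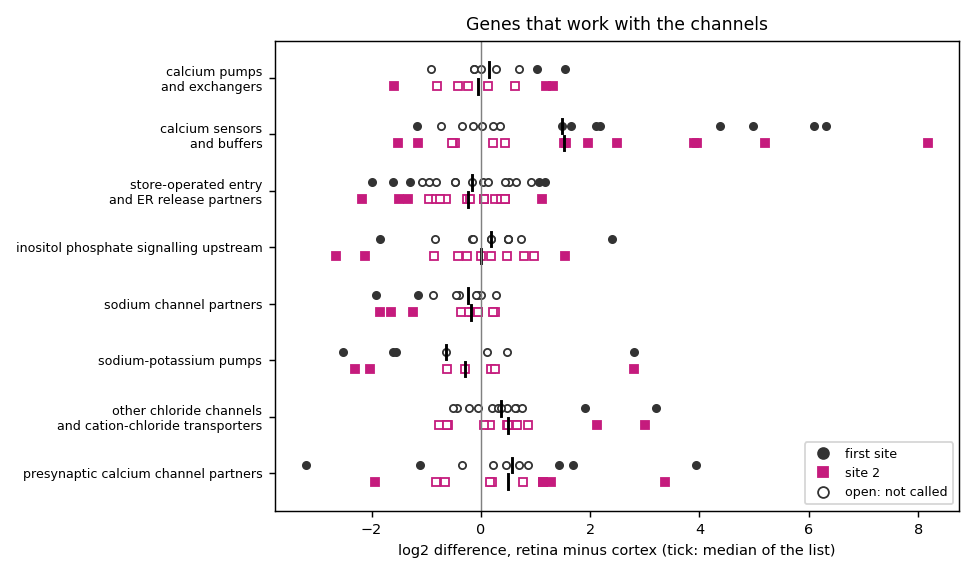
Log2 difference, retina minus cortex, of genes in 8 lists of channel partners (horizontal axis, 1 point per gene). Circles are the first site and squares site 2, filled where called, and black ticks mark the median of each list. The calcium sensors and buffers extend furthest towards retina, with medians of 1.48 and 1.51, and the medians of the other lists lie between -0.64 and 0.58.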

How the data were processed

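Expression was measured on 20 1-colour CodeLink arrays, 5 in each of 4 groups taken from the labels. The deposited table gives 1 linear intensity per probe for 10500 probes. Labelling followed the CodeLink assay, per the labels. Scanner software, background correction, scaling and filters are each not given in the sources used here. In the deposited values 143 were at or below 0 and array medians ran from 0.927 to 0.963, so the intensities appear background-subtracted and scaled, 1 being about the median probe. There is no detection call, and 2080 values were blank.

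Probes were named from the platform annotation, where 9378 of 10500 had 1 symbol, 8 several and 1114 none. All 51 channel genes were found in the RefSeq gene table of GRCm38.p6, used for names and gene order. Values were put on the log2 scale, those at or below 0 treated as missing, and 10339 probes with at least 3 values in each group were tested. Array log2 medians differed by at most 0.0594, so no normalization was added. One limma 3.58.1 model (R 4.3.3) with 4 group means was fitted to all 20 arrays (16 residual and 2.16 prior degrees of freedom), with Benjamini-Hochberg adjustment over all tested probes. The groups share the estimate of a probe's spread, so an outlying array at either site also enters the SE at the other. Levels called averages are geometric means. The model was tested on simulated data. Figures used Python 3.11.15 and matplotlib 3.10.9.

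Named with values were genes called in any contrast, the brightest of each family and any others that a family account needed, those others chosen after their values were seen. The members and gene lists were chosen with earlier results of these data known. Alternatives were quantile normalization, intensity floors, other filters, fits to the compared groups alone, another variance prior, a replicate block, gene means, no minimum fold and leaving out each array. Those for differences between sites of single genes, for partner genes and for the less described channel genes were added after seeing the data.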

Additional observations from a re-analysis of the deposited data

Results flagged for a closer look

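Single arrays stood apart from their group, by the gap to the nearest array relative to the group's range in log2, in 13 of 120 groups of 30 genes (those called in any contrast and the brightest of each family). Chance gives about 1 in 20 for a single group. The 30 genes were picked from these same values and share arrays, so the count cannot be measured against that rate. Asic5 and P2rx7, each with a single high retina array at site 2, were outside the 30 genes. Of the 13, 9 were on cortex replicate 5 of site 2. There Cacng1 read 3.66 (next 0.175), Clcn2 1.99 (next 0.292), Clcn7 2.55 (next 0.384), Trpv2 3.38 (next 1.27), Cacnb1 1.73 (next 0.514), Clcn3 5.45 (next 3.30) and Cacna2d3 6.07 (next 4.34), all above the other 4 arrays. Cacna1c read 2.1 (next 2.66) and Trpc2 5.89 (next 7.48) below them. The other 4 were Clic5 at 0.392 on cortex replicate 1 of site 2 (next 0.192), Ryr1 at 0.0273 on first-site retina replicate 3 (next 0.0546) and at 0.199 on retina replicate 2 of site 2 (next 0.0651), and Trpc2 at 4.12 on first-site retina replicate 2 (next 3.56).

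By the interaction term in limma, the retina minus cortex difference differed between the sites, at under 2-fold, for 2 genes. It was 0.65 log2 larger at site 2 for Cacna1f (2.29 at site 2 and 1.65 at the first site). For Asic2 it was -0.59, with -0.34 at site 2 and 0.26 at the first site.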

How the results depend on the processing

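Of the 12 genes called the same way at both sites, Cacna1f, Cacna1c, Cacnb2, Trpc4 and Trpv2 kept both calls under every alternative run. Leaving out 1 array at a time gave 9 to 11 genes higher in retina and 8 lower (first site), 3 to 4 higher and 8 to 9 lower (site 2), 5 to 7 called between sites in retina and 3 to 7 in cortex, and 0 whose tissue difference was called different between sites. With a floor at the 25th percentile, 4 (first site) and 5 (site 2) were lower, and 2 were called between sites in each tissue. Quantile normalization gave 3 between sites in retina and 4 in cortex. Shares over all probes are given only for the setting with no minimum fold. Counts under the other settings therefore cannot be set against those of other probes. With no minimum fold, 15 were higher (29.4%, against 28.6% of all probes) and 14 lower (27.5%, against 31.3%) at the first site. At site 2, 13 were higher (25.5%, against 28.4%) and 17 lower (33.3%, against 32.1%). Between sites, 22 differed in retina (43.1%, against 46.7%) and 24 in cortex (47.1%, against 46.8%), and 2 in their tissue difference (3.92%, against 3.98%). Same-numbered arrays did not deviate together (correlations of -0.0784 to 0.0536), so the numbers were not taken as pairs. With the replicate block, 9 (first site) and 4 (site 2) were higher, 8 and 9 lower, and 5 in each tissue differed between sites, with Itpr3 at the first site (adjusted p in limma 0.062) and Clcn2 between sites in cortex (0.059) lost.

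No called tissue difference changed sign. Of the 13 genes with an uncalled one that did, 9 were outside the 30 genes called in any contrast or brightest in their family, and had differences of at most 0.33 log2 in size. The others were, with 1 array left out, Scn11a (-0.0055 to 0.090 at the first site, -0.0081 to 0.16 at site 2), Trpm5 (-0.46 to 0.035, first site), Clic5 (-0.074 to 0.26 and -0.0092 to 0.34) and Cacng1 (-0.74 to 0.52, site 2). Scn11a was -0.073 after quantile normalization (first site) and Clic5 -0.013 with the higher floor (site 2). The causes were not tested. Readings about the 5th percentile (0.0445) have no detection call, so their folds depend on an unknown background step. Among such readings were those of Itpr3 in both tissues, Ryr1 in retina, Asic1 and Cacnb1 in first-site retina, and Clca1 in cortex.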
